A study of Drosophila melanogaster with 10 samples.

Results

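The genes described here encode subunits of the ISWI chromatin remodeling complexes of Drosophila melanogaster. They are E(bx), Iswi, Nurf-38, Caf1-55, Acf, Chrac-14, Chrac-16, and tou, a set defined by function, and all 8 were found by symbol in the RefSeq gene table of the dm6 assembly. They are 8 of the 13922 protein-coding genes that the table places on 2L, 2R, 3L, 3R, 4, and X. The rule for membership uses no measured value, although the set was chosen with earlier results of these data known. For each gene, every accessible site inside it or within 1000 bp of either annotated end was taken, and 56 of 39806 sites in the whole list met this rule.

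The sites come from ATAC-seq of S2 cells, an embryo-derived line with features of hemocytes, the blood cells of the fly. In ATAC-seq the Tn5 transposase inserts sequencing adapters where DNA is exposed, so that open chromatin is read more often than packed chromatin. The study made 10 libraries, 2 for each of 5 double-stranded RNA treatments lasting 5 days: LACZ, GAF, BAP170, NURF301, and NURF301+BAP170. LACZ names a bacterial gene that flies lack, GAF is a GAGA-binding transcription factor, BAP170 is a subunit of the PBAP remodeler, and NURF301 is the protein made by E(bx), one of the genes described here.

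The deposited list was called once on all libraries together and has no value for a single library or treatment. Treatments and replicates therefore could not be compared, the knockdown of E(bx) could not be checked in any library, and the values below carry no replicate error and no test. Depth per library is unknown. Each entry is a summit, the base where signal peaks, and its score is −log10 of the q value from the peak caller. Scores in the list ran from 1.30 to 80130 around a median of 21.9. Of 15615 peaks, 8974 held more than 1 summit, and the median distance between neighboring summits of a peak was 207 bp. A score grows with pooled depth and with DNA copy number as well as with accessibility, so scores are set side by side only as ranks and levels within this list, and no fold is given. Where values of 2 genes are close, nothing in the list says whether they differ.

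ISWI is an ATPase that slides nucleosomes along DNA and sets their spacing, and its partners decide in which complex it works. With E(bx), Nurf-38, and Caf1-55 it forms NURF, known for opening promoters to transcription factors. With Acf it forms ACF, and with Acf, Chrac-14, and Chrac-16 it forms CHRAC, both known for assembling evenly spaced nucleosome arrays. With the product of tou it forms ToRC, which also binds the corepressor CtBP. Iswi is thus a member of each complex, and Acf of both ACF and CHRAC.

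All 8 genes had a summit inside or within 1000 bp, against 67.6% of coding genes. The 8 genes also each had a summit within 500 bp of an annotated end, against 60% of coding genes. The gene table gives no strand, so an end here is either the start or the finish of transcription, and the ends are called lower and upper by coordinate. At each of the 8 genes the strongest of these end summits was at or above the list median of 21.9, which held for 50.5% of coding genes. Each gene had a summit within 100 bp of an end, a distance chosen after the values were seen, against 37.5% of coding genes. Among genes longer than 1000 bp, a limit also chosen after the fact, all 6 members had end summits at 1 end only, against 71% of such coding genes. With 71% as background, end summits at 1 end only are usual for genes of this size.

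E(bx) encodes NURF301, the largest NURF subunit, with PHD fingers and a bromodomain that bind histone tails. The gene spans 12987 bp at 3L:233926-246912 with 9 annotated transcripts. Its 4 summits belonged to 1 peak and sat at the upper end. From inside outward they scored 20.7 at 246221, 110 at 246569, 238 at 246769, and 166 at 246956. The strongest was 143 bp inside the gene, the outermost was 44 bp beyond its annotated end, and the weakest, 691 bp inside, was just under the list median. The other 12295 bp of the gene held no summit, and the next one past the lower end was 1040 bp away, outside the distance counted. The neighbors CG34453, 574 bp below, and mthl14, 578 bp above, lay farther from each of the 4 summits than the end of E(bx) did.

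Read by score, E(bx) stood high. Its strongest score exceeded that of 85.5% of coding genes, with genes lacking a summit ranked lowest, and of 82.4% of those on 3L. Read by number, it stood lower, above 66.1% of coding genes. Among the 200 other coding genes closest in length, from 12057 to 13948 bp, the median was 5 summits, and 107 had more than 4. E(bx) ranked above 74.5% of these 200 genes by strongest score and above 41.5% by number. Of those 200 genes, 87 (43.5%) had no summit deeper than 1000 bp from both ends. Among these 87, 46 had a summit at an end, as E(bx) did, and 31 had no summit at all. A long body without a listed summit was thus common at this length.

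Iswi encodes the ATPase itself. It spans 3958 bp at 2R:12636671-12640628 with 3 annotated transcripts. It had 2 summits, in 1 peak, and both lay below the gene in the 529-bp gap to Mvk and CG33672, which share an annotated interval. The summit at 12636619, 52 bp outside the lower end of Iswi, scored 127. The other, at 12636159, scored 111 and lay 18 bp from the end of Mvk and CG33672 but 512 bp from Iswi. Each of these summits is therefore next to a different gene's end, 460 bp apart. Nothing was listed inside Iswi, and the next summit past its upper end was 8099 bp away, beyond CG8785, which starts its interval 61 bp above Iswi. The strongest score was higher than in 68.6% of coding genes, but among genes of 2R with an end summit it was near the middle, above 49.0% of them. The catalytic gene common to the 4 complexes thus had neither the highest score nor many summits, and 107 of the 200 genes closest in length had more than 2.

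Nurf-38 encodes an inorganic pyrophosphatase that copurifies with NURF. It spans 2121 bp at 2R:24558967-24561087 with 3 annotated transcripts. A peak of 2 summits lay just inside its upper end, scoring 115 at 24560916 and 146 at 24561047. The stronger was 40 bp and the weaker 171 bp from that end. A separate single-summit peak at 24561612, with a score of 86.2, lay 525 bp outside Nurf-38 and 5 bp inside the annotated interval of CG11414. Only the first 2 summits were closer to Nurf-38 than to another gene. The lower end, 5 bp from ITP, had no summit within 5052 bp below it. The strongest score exceeded that of 72.2% of coding genes and of 66.6% of those on 2R.

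Caf1-55 encodes a WD40 protein that binds histones and also serves in the chromatin assembly factor CAF-1, in the Polycomb complex PRC2, in NuRD, and in complexes with Rbf. It spans 1989 bp at 3R:15225576-15227564 with 2 annotated transcripts. A single-summit peak at 15225503 scored 240, the highest end score of the 8 genes. It fell in the 246-bp gap to CG31344, 73 bp from Caf1-55 and 174 bp from CG31344. No summit lay inside Caf1-55 or near its upper end, where Art3 begins 40 bp away, and the next one on that side was 1955 bp off. The score was above 94.2% of all summits in the list, and 85.7% of coding genes had a lower strongest score. Of the 200 genes closest in length, 89% had a lower strongest score, yet 110 had more than 1 summit. Caf1-55 combined the fewest summits of the set with the highest score at an end, and the 238 of E(bx) was hardly below it.

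Acf encodes the large subunit of ACF and CHRAC, which raises the remodeling activity of ISWI. It spans 5819 bp at 3R:31793981-31799799 with 1 annotated transcript. Its 6 summits formed 1 peak across the lower end, where Mccc1 lies 73 bp away. Those at 31793200, 31793423, and 31793547 scored 4.36, 16.3, and 18.0, all under the list median, and lay inside Mccc1. The strongest, at 31793888, scored 223 and was 93 bp from Acf but 19 bp from the end of Mccc1, again inside it. The summits at 31794194 and 31794492, inside Acf at 213 and 511 bp, scored 128 and 120. So 2 of the 6 were closer to Acf than to Mccc1, and both were above the median. The remaining 5307 bp of Acf, up to its 166-bp overlap with CG42233, had none. The strongest score was higher than in 83.9% of coding genes, and 49 of the 200 genes closest in length had more than 6 summits. Without the summits inside Mccc1, the score of Acf would rest on the 128.

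**Figure D1:**
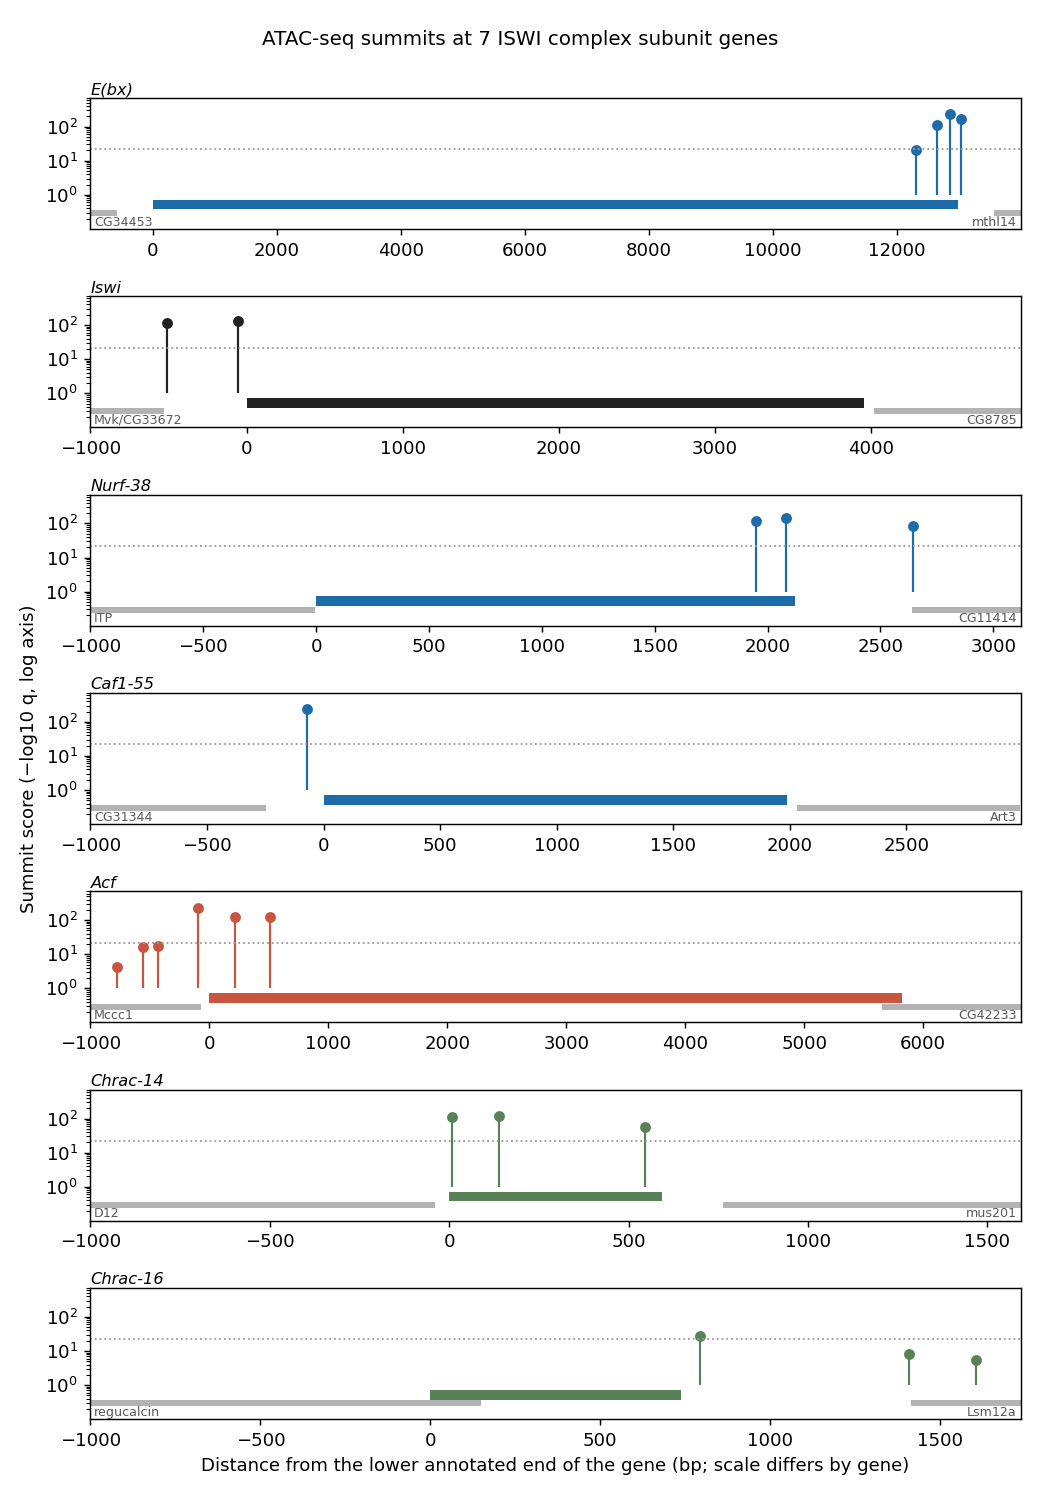
ATAC-seq summits at E(bx), Iswi, Nurf-38, Caf1-55, Acf, Chrac-14, and Chrac-16, with the distance from the lower annotated end in bp on the x axis (the scale differs by gene) and the score (−log10 q) on a log y axis. Each stem is 1 summit, the colored bar is the gene, gray bars are neighboring genes, and the dotted line is the list median of 21.9. Stems cluster at 1 end of the 5 genes longer than 1000 bp, while those of Chrac-14 lie within the gene and those of Chrac-16 lie beyond it.

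Chrac-14 encodes a small histone-fold protein that pairs with the Chrac-16 product, and its human counterpart is also a subunit of DNA polymerase epsilon. It spans only 592 bp at 2L:8437405-8437996 with 1 annotated transcript. A single peak put 3 summits inside it, scoring 112 at 8437412, 116 at 8437543, and 55.6 at 8437950. The first was 7 bp from the lower end, beside D12 at 39 bp, and the last was 46 bp from the upper end, beside mus201 at 172 bp. The nearest summits outside were 2600 bp below and 11494 bp above. So all 3 summits lay inside this short gene, and none was closer to a neighbor. The first was, however, only 47 bp from the end of D12. Of the 200 coding genes closest in length, 137 had no summit and 23 had more than 3. Its strongest score was above that of 66.6% of coding genes, and its 1.16 summits per kb, counted with 1000 bp on each side, was the highest of the set.

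Chrac-16 encodes the other histone-fold subunit. It spans 737 bp at X:12017225-12017961 with 2 annotated transcripts and is the only 1 of the 8 on X. A single-summit peak at 12018019, 58 bp outside the upper end, scored 28.2. A second peak at the neighbor Lsm12a gave 12018633 with a score of 8.24, 7 bp from the end of Lsm12a, and 12018830 with 5.49, inside Lsm12a. No summit lay inside Chrac-16 or at its lower end, where it overlaps regucalcin by 151 bp. The score of 28.2 was the lowest strongest score of the set, and 44.2% of all coding genes ranked below it. Among coding genes of X, 60.3% ranked below it. The median strongest end score was 35.0 on X against 113 to 129 on the 4 large autosomal arms, and the part of this difference in the rank of Chrac-16 was not tested. Among genes with an end summit, the percentage ranked below Chrac-16 was 19.2 across all arms and 41.9 on X. Both histone-fold genes are short, and 115 of the 200 genes closest in length to Chrac-16 had no summit.

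The gene tou (toutatis) encodes a large protein with a bromodomain, related to mammalian BAZ2 proteins, that partners ISWI in ToRC. It spans 38561 bp at 2R:11577485-11616045 with 5 annotated transcripts and held 34 of the 56 summits, in 14 peaks. Of these, 32 lay inside and 31 were internal, here meaning more than 1000 bp from both ends. Scores ran from 2.01 to 641 with a median of 62.2, 24 of the 34 (70.6%) were at or above the list median, and 7 were over 200. The strongest, 641 at 11603523, was 26038 bp from the lower end and above 99.4% of all summits in the list. The next were 473 at 11614300, 447 at 11605065, 376 at 11615239, 255 at 11601688, 250 at 11593223, and 233 at 11594127. Of these 7, only the one at 11615239 was within 1000 bp of an end, 806 bp inside the upper one.

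At the upper end of tou itself, the summits were modest by comparison. The one at 11616066 scored 121 at 21 bp outside the gene, and that at 11616172 scored 117 at 127 bp outside, 23 bp from lncRNA:CR43907. Both lay in the gaps of 149 bp to that noncoding gene and of 823 bp to Egm. They shared a peak with the 376 at 11615239, so keeping only the strongest summit of each peak left tou as the 1 gene of the 8 with none within 500 bp of an end. At the lower end, nothing was listed for 4719 bp inside or 17874 bp outside. tou was the only member whose strongest summit was internal, against 6.74% of coding genes.

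Along tou the summits were uneven. A peak of 11 summits spanned 2003 bp, from 14993 to 16995 bp past the lower end, with scores from 4.22 to 250, a median of 63.2, and a median spacing of 210.5 bp. Only 196 peaks of the list (1.26%) had as many. The widest stretch between neighboring summits was 8594 bp, and it ended at a weak summit of 16.4, at 11591569, which lay 84 bp from snoRNA:Psi28S-1180, a small nucleolar RNA gene inside tou. On the lower side of the midpoint lay 15 of the inside summits, with a top score of 250 and a median of 61.1. The upper side had 17, with a higher top of 641 and a lower median of 40.0. The strongest summits thus lay toward the upper end, among many weak ones.

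**Figure D2:**
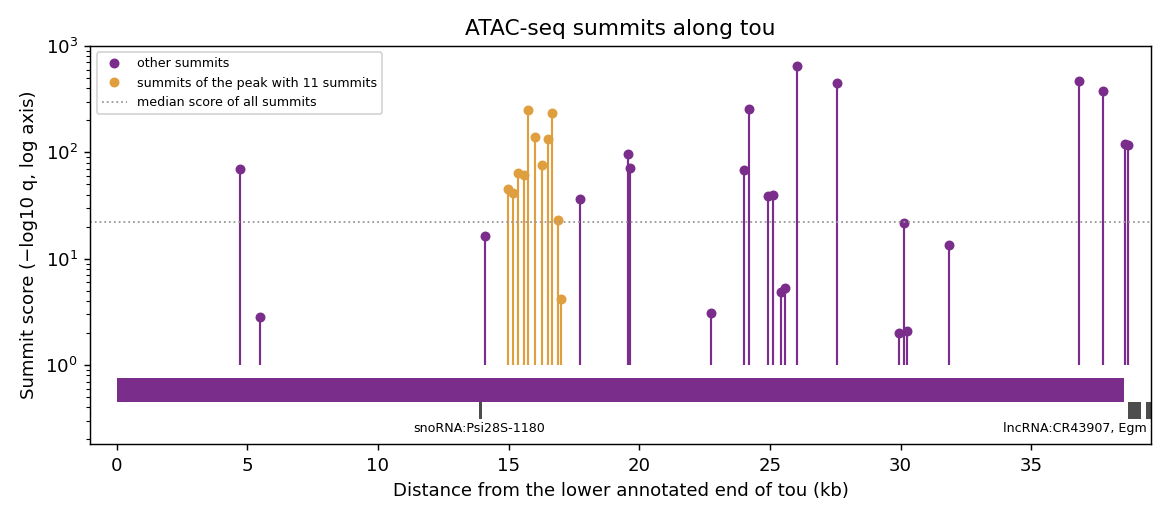
Summits along tou, with the distance from its lower annotated end in kb on the x axis and the score (−log10 q) on a log y axis. Each stem is 1 of 34 summits, orange stems are the peak of 11, the bar is tou, small bars are other genes, and the dotted line is the list median. The top score of 641 lies 26038 bp from the lower end, and the end summits of 121 and 117 are lower.

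tou is the longest of the 8 genes and was set beside others of like length. Among the 200 coding genes closest to it in length, from 33074 to 44049 bp, the median was 7 summits and the highest 77, and 18 had more than 34. The median number of internal summits was 4, and 64 of the 200 (32%) had none. In 80 (40%) the strongest summit was internal. An internal strongest summit was therefore frequent at this length, while few genes of this length had as many summits. Over all coding genes, 107 had more summits than tou. Per kb, tou had 0.838 summits, more than 90% of the 200 genes and 74.5% of all coding genes.

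**Figure D3:**
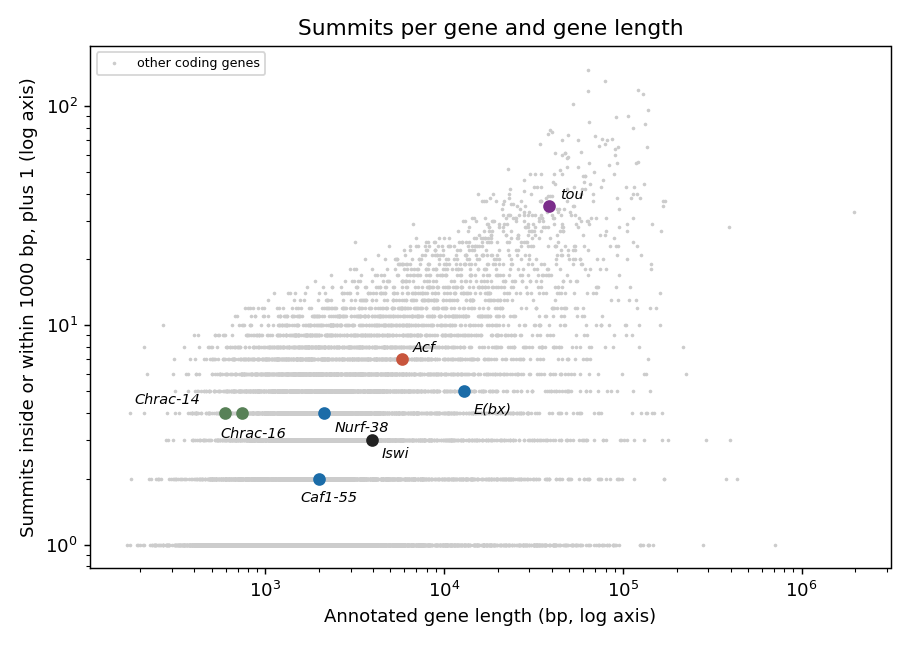
Summits inside or within 1000 bp of each coding gene, plus 1, against annotated gene length in bp, both on log axes. Gray points are other coding genes and colored points the 8 ISWI complex genes. tou, with 34 summits, lies high for its length, Chrac-14 and Chrac-16, with 3 each, lie above the many short genes with 0, and E(bx), with 4, lies among genes of like length.

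Ordered by the strongest summit within 500 bp of an end, the genes ran from Caf1-55 (240), E(bx) (238), and Acf (223) through Nurf-38 (146), Iswi (127), tou (121), and Chrac-14 (116) to Chrac-16 (28.2). Without replicates, no spread is known for any step in this order. The 223 of Acf lay inside Mccc1, and with only the summits nearer to Acf its value is 128, beside those of Iswi and tou. Chrac-16 was lowest in either case. Their median was 136, beside 103 for the 8358 coding genes with an end summit. With internal summits included, the median strongest score was 184, or 146 without tou, beside 114 for coding genes with a summit. Leaving out tou was chosen after its values were seen.

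**Figure D4:**
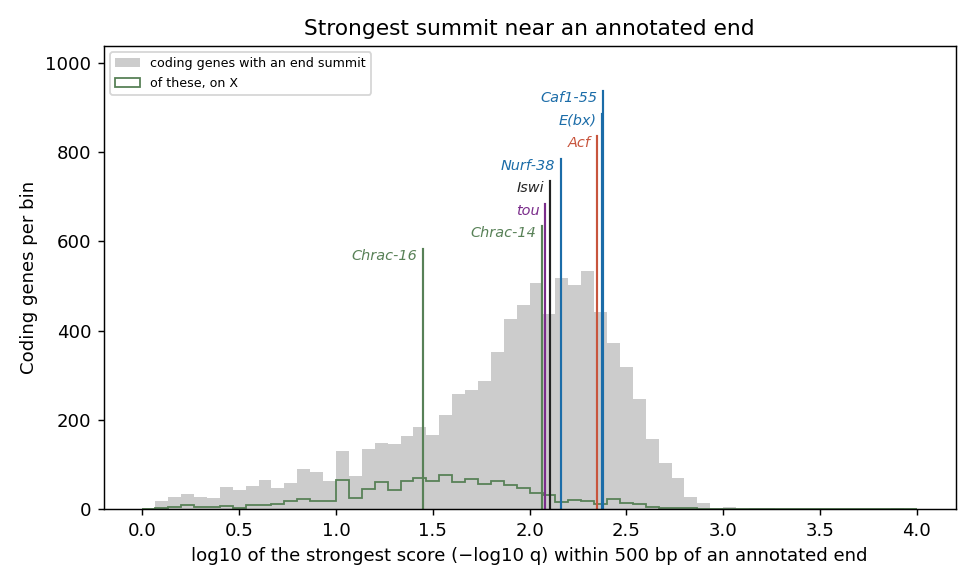
Histogram of the strongest score within 500 bp of an annotated end for coding genes with such a summit, on a log10 scale, with the green outline for genes on X. Vertical lines mark the 8 ISWI complex genes, and line heights only separate the labels. Chrac-16 (28.2) lies within the bulk of the X genes, and Caf1-55 (240), E(bx) (238), and Acf (223) lie in the upper part of all genes.

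Grouped by complex, the values differed with the members that the complexes do not share. The 4 NURF genes had 10 summits, and their strongest scores ran from 127 to 240 with a median of 192. The 2 ACF genes had 8 summits, with strongest scores of 127 and 223, the latter inside Mccc1 and 128 by the summits nearer to Acf. The 4 CHRAC genes had 14 summits, from 28.2 to 223 with a median of 122, and the low value was that of Chrac-16. Of ToRC, 2 genes are among the 8, and CtBP was not counted here. These 2 genes had 36 summits, of which tou held 34. Their end scores, 127 and 121, were close, although tou reached 641 inside. These medians overlap in genes, since Iswi enters each of them, and complexes with 2 genes in the set give only a pair of values.

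Neighboring genes were close at each of the 8, with another gene overlapping or within 1000 bp, as at 90.7% of coding genes. Of the 22 summits at the 7 genes other than tou, 14 were closer to the member's own end than to that of any other gene, 14 were within 500 bp of it, and 8 within 100 bp. The 8 nearer to a neighbor were at Iswi (1), Nurf-38 (1), Acf (4), and Chrac-16 (2). Of the 22, 16 were at or above the list median. None was internal, which Caf1-55, Chrac-14, and Chrac-16 are too short to allow and Nurf-38 nearly so. Such a summit had room in E(bx), Iswi, and Acf. Of the 200 genes closest in length to each, 87 (43.5%), 160 (80%), and 124 (62%) had none either. In E(bx), Caf1-55, and Chrac-14 each summit was nearest to the member itself. Within peaks, neighboring summits of these 7 genes were 124 to 460 bp apart with a median of 223 bp over 13 intervals. In tou the median was 189 bp over 20 intervals, from 93 to 827 bp, beside 207 bp in the whole list.

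Genes that work with the same proteins were set beside them from lists chosen by function. All 32 had an end summit, against 60% of coding genes. Their median strongest end score was 124, beside 103 for coding genes with an end summit, and their median number of summits was 4.5. The list of other ISWI partners held Rsf1 and CtBP. The gene found by the symbol Rsf1, of 1760 bp, had an end score of 85.8. That it encodes the remodeling subunit of that name was not established. Its value, counted among the 32, is therefore not read as that of an ISWI partner. CtBP, the corepressor in ToRC, had 144. CtBP spans 14627 bp and, like tou, held many summits, 21 of which 16 were internal, but its strongest lay at an end.

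The 10 other Snf2-family ATPases, the motors of other remodelers, had a median end score of 117, from 14.7 at Marcal1 to 623 at Ino80. Iswi, at 127, was near the middle of them. brm, the ATPase of the SWI/SNF complexes, is like E(bx) in length, at 12788 bp, and also lies on 3L. It had 2 summits, none internal, and a top score of 40.1 against 238 for E(bx). Genes like tou in length went different ways. kis, a CHD-family gene of 40089 bp, had 31 summits, 26 internal, with its strongest, 293, internal. Ino80, at 34159 bp, had 3 summits and none internal. Mi-2, the NuRD ATPase, is shorter than tou, at 28165 bp. It had 27 summits, 24 of them internal, and its strongest, 212, was internal too.

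The 13 partners of Caf1-55 in other complexes had a median end score of 129, from 22.6 at the gene of the large CAF-1 subunit, on X, to 322 at HDAC1. The PRC2 gene esc had 253 and the NuRD genes MBD-like and MTA1-like had 271 and 231, levels near the 240 of Caf1-55. E(z) and Su(z)12, also of PRC2, had 59.8 and 80.2. Genes of 1 complex thus spanned a wide range, as in CHRAC. E2f1, a partner of the Rbf complexes, resembled tou most in this list, with 30 summits over 40568 bp, 26 of them internal, and a strongest score of 783 inside beside 108 at an end.

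The polymerase epsilon genes PolE1, PolE2, and PolE4 (synonym Mes4) had end scores of 188, 86.6, and 247. Chrac-14, at 116, lay between the lowest and the others. The 4 other histone-fold genes had a median of 142, with 18.7 at Nf-YC, 81.4 at NC2beta, 203 at NC2alpha, and 448 at Nf-YB. Nf-YC, like Chrac-16, is on X. Among the Caf1-55 partners on X, the gene of the large CAF-1 subunit had 22.6, Rbf had 44.7, and mip130 had 172. Only mip130 of these exceeded the median of 103 for coding genes with an end summit. The median of such genes on X was 35.0. Whether location on X contributed to these values was not tested.

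**Figure D5:**
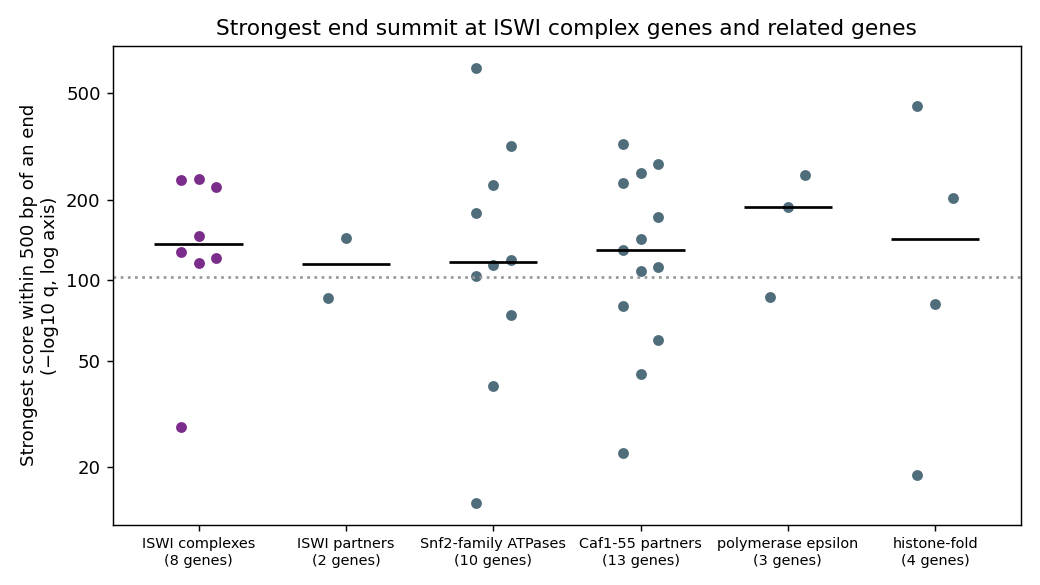
Strongest score within 500 bp of an annotated end (−log10 q, log y axis) for the 8 ISWI complex genes and 5 lists of related genes on the x axis. Each point is 1 gene, black bars are medians, and the dotted line is the median of 103 for coding genes with an end summit. Rsf1, in the list of ISWI partners, was found by symbol only and may be another gene. Each list spans the dotted line, from 14.7 at Marcal1 to 623 at Ino80.

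The cell label was checked with markers. Of 10 hemocyte and S2 markers, 7 had an end summit, against 60% of coding genes. Their end scores were 14.03 at Pxn, 16.5 at He, 33.1 at Hml, 122 at srp, 183 at ush, 463 at crq, and 513 at Pvr. NimC1 and Sr-CI had no summit, and vkg had none at an end. An end summit was also listed for 3 of 5 neuronal markers, up to 223 at brp, while nSyb and para had no summit. In muscle it was 1 of 5, Mlc1 with 15.3, and Mhc, up, wupA, and Act88F had no summit. In the germ line it was 3 of 4, up to 203 at osk, with none at bam, and nos was left out because its name matched more than 1 gene. Apart from muscle, these shares lay near that of all coding genes, so the share with an end summit does not identify the cells. The lists differed more in number of summits, with at most 84 at a hemocyte or S2 marker, 9 in neurons, 1 in muscle, and 6 in the germ line. At srp (577), ush (394), and Pxn (131) the strongest summit was internal, and at no marker of the other lists. Gene lengths differ between the lists, and these differences were not tested.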

How the data were processed

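ATAC-seq was made from 10 S2 cell libraries in 5 treatment groups of 2, assigned by the labels. The authors deposited 1 summit list, whose score is the −log10 q-value of their peak caller. The peak names, which refer to all libraries, and the sample descriptions, which share the list, are the basis for calling it pooled. The submitters' processing notes name Bowtie2 2.3.5.1, MACS2 2.1.0.20150731, deepTools 3.1.3, DESeq2 1.26.0, and dm6, without their roles. Not given in the sources used here were the filters on reads and any Tn5 offset. A shift would move summits by a few bases, and filters on repeated reads would change scores.

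Summits were assigned to gene intervals of the RefSeq dm6 table with Python 3.11.15, numpy 2.4.6, pandas 2.3.3, and matplotlib 3.10.9. Columns without a mapped sample numbered 0. The assignment was checked on simulated summits. Strands, exons, and sequences were not used here, so summits could not be placed in promoters, exons, or introns, and a planned motif search was not run. A planned count at transcription starts was made at either end instead. Percentages ranked below a gene were computed over all coding genes, over its arm, and over genes with a summit. Each gene was also set beside the 200 other coding genes closest in length, ties taken by symbol.

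Genes named were the 8 subunits, each gene overlapping them or within 1000 bp, and, from the lists of related genes, any lacking an end summit (there were none) and the highest in each list. Other related genes and markers were named after their values were seen. The subunits and lists were chosen with earlier results of these data known. Alternatives were other distances (0, 250, 500, and 1000 bp), 1 summit per peak (the strongest), only summits reaching the median score, other gene sets for ranking, length without flanks, and, chosen after seeing the data, omission of tou.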

Additional observations from a re-analysis of the deposited data

How the results depend on the processing

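Counted inside the genes only, 5 of the 8 genes had a summit, since the summits of Iswi, Caf1-55, and Chrac-16 lay outside. Keeping only the strongest summit of each peak left 23 of the 56 summits, and leaving out tou, chosen after seeing the data, left 22. The other 14 of 17 alternatives to these main counts and medians stayed within 1.5 times the main value, among them the 7 genes with an end summit when 1 summit per peak was kept, tou having none. Of 36 alternatives for single genes and for the share of all coding genes, 6 moved by more. Of these, 5 were summits per kb without the flanks, which gave 0 for Iswi, Caf1-55, and Chrac-16, 0.344 for Acf, and 5.07 for Chrac-14. The other was the rank of Chrac-16, above 17.5% of the genes with a summit. No paired analysis was possible because summits were called on all libraries at once. This limits every value, since depth, replicate spread, and treatment cannot be separated in it.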
